A study of Mus musculus with 40 samples.

Results

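Induced regulatory T cells (iTregs) restimulated in the presence of either of 2 inhibitors of the calcium-NFAT pathway were compared directly: CM-4620, an inhibitor of the ORAI channels of store-operated calcium entry (SOCE), and cyclosporin A (CsA), an inhibitor of the phosphatase calcineurin. The comparison holds the RNA-seq libraries labelled as iTregs with an ORAI inhibitor and as iTregs with CsA, with 3 replicates each, which are 6 of the 24 RNA-seq libraries and of the 40 libraries of all assays in the series. It asks what block of the calcium channel did beyond block of calcineurin, and the reverse. The sorted and rested iTregs without restimulation (resting, n = 3) and the iTregs restimulated without inhibitor (restimulated, n = 3) serve as reference levels.

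The cells of all 4 groups were made in one way. Naive CD4+ T cells were sorted from 6-week-old Foxp3-GFP or Foxp3-RFP reporter mice and stimulated through CD3 and CD28 with TGF-β and IL-2 for 4 days. The Foxp3+ cells were sorted, rested for 1 day in IL-2 and, apart from the resting group, stimulated again with plate-bound antibodies to CD3 and CD28. These are cells induced in culture with a Foxp3 reporter, not Tregs taken from a tissue. The labels of the CM-4620 libraries name an ORAI inhibitor without its code. CM-4620 is the one inhibitor beside CsA that the study gives for its RNA-seq, and these libraries are called by that name here. The doses of both inhibitors and the time of harvest for RNA are not given in the sources used here, so the comparison is of 2 treatments as they were applied and not of matched doses. The sources also do not say whether replicates came from separate cultures or mice, and the p-values then measure only the spread between these libraries.

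Ligation of the T cell receptor empties the calcium store of the endoplasmic reticulum, STIM proteins sense the loss, and they open ORAI channels in the plasma membrane. Calcium that enters binds calmodulin, which activates calcineurin, and calcineurin removes phosphates from NFAT proteins so that they move into the nucleus. CsA acts downstream of the channel: bound to cyclophilin it blocks calcineurin. A channel inhibitor acts upstream of calcineurin and also of other enzymes that depend on this calcium entry. CsA also binds cyclophilins outside the NFAT pathway. NFAT, often together with AP-1, drives cytokine and activation genes in T cells.

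The values are normalized counts, which are gene counts divided by a size factor per library by the authors. Reads recovered from them numbered 10794240, 12353391 and 12608045 with CM-4620 and 10672930, 10740852 and 13827662 with CsA, so that depth overlapped between the inhibitors. A count of 3 reads, taken as the floor, was worth between 2.28 and 3.36 normalized counts. The libraries numbered 3 stood apart in all 4 groups. Their deviations from the group means correlated with each other at 0.21 to 0.30, against -0.04 to 0.19 for libraries that shared number 1 or 2 and -0.26 to 0.13 for different numbers. T cell markers were high throughout, with 8 of 8 present and a summed level between 35154 and 37672 normalized counts in the 6 inhibitor libraries. All 3 NK cell markers, Ncr1, Klrb1c and Klra8, and the B cell markers Ms4a1 and Pax5 were at 0 in all of these 6. The summed level of 5 neutrophil and mast cell markers, nearly all of it Ly6g, was between 81.6 and 104 with CM-4620 and between 103 and 147 with CsA.

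The inhibitors left the iTregs with transcriptomes that were alike in most genes. Of the 11105 genes tested, 51 differed between CM-4620 and CsA, which is 0.459%. In 39 of them (0.351%) the level was lower with CM-4620 and in 12 (0.108%) it was higher. A gene was called at a Benjamini-Hochberg adjusted p under 0.05 in limma, fitted with the replicate number as a block, and an absolute log2 difference above 0.5. Here a log2 difference is the mean of log2(normalized count + 1) with CM-4620 minus that with CsA. The same fit called 420 genes (3.78%) between CM-4620 and restimulated iTregs, 372 (3.35%) between CsA and restimulated iTregs, and 1500 (13.5%) between restimulated and resting iTregs. The median absolute log2 difference between the inhibitors was 0.10, against 0.12 and 0.13 of each inhibitor from restimulated iTregs and 0.20 of restimulated from resting iTregs.

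For 8216 of the genes tested (74.0%) the 95% interval of the difference between the inhibitors lay within ±0.5 on the log2 scale, and for 10316 (92.9%) within ±1. The remaining genes were measured too coarsely for such a bound or differed. The share within ±0.5 was 69.4% for CM-4620 and 69.3% for CsA against restimulated iTregs, and 57.0% for restimulated against resting iTregs. The median SE of a difference between the inhibitors was 0.099, close to the median absolute difference. In bulk libraries fewer cells of a type and less RNA per cell cannot be told apart, for these genes and for all that follow. The called differences were moderate in size: they ran from 1.41-fold to 3.04-fold, 7 of the 51 were 2-fold or more and 18 were under 1.5-fold. In 49 of the 51 genes the 3 libraries with CM-4620 and the 3 with CsA did not overlap, as was also the case in 19.2% of all genes tested. Without the replicate block 40 genes were called, 11 higher and 29 lower with CM-4620, and all of them were among the 51. Without all 4 libraries numbered 3, 47 genes were called and 34 of the 51 kept their call. Of the 51 genes, 19 kept the call when each of the 6 libraries was left out in turn, and all 51 kept their direction. The counts fell furthest to 32 without CsA replicate 2 and to 23 without all 4 libraries numbered 2. Under DESeq2 on the recovered reads 42 of the 51 kept their call. Those lost there were Atp7b, Havcr2, Lzts1, Pygl, Prss12, Ptges3l, P2rx7, Cemip2 and mt-Co3.

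**Figure D1:**
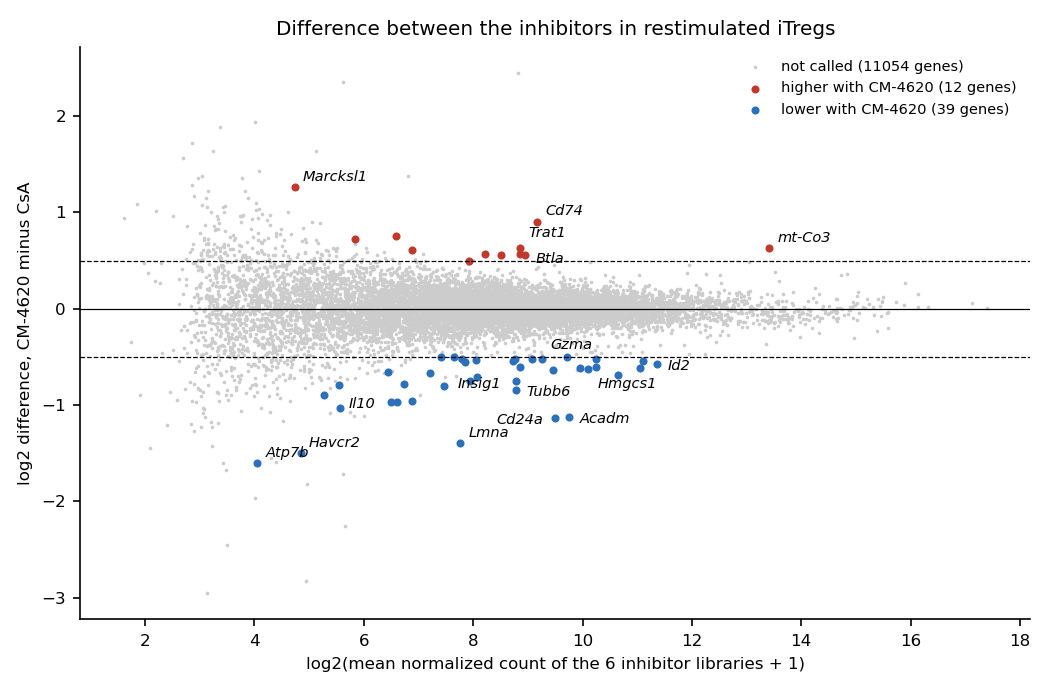
The y axis gives the log2 difference between CM-4620 and CsA and the x axis the log2 mean level over the 6 inhibitor libraries, with one point per gene tested and dashed lines at ±0.5. The 39 genes called lower with CM-4620 (blue) include high genes such as Cd24a and Acadm, and the 12 called higher (red) are led by Marcksl1 and Cd74.

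The largest differences that kept the call without each library were those of Lmna, Acadm and Cd24a, each at least 2-fold lower with CM-4620. Lmna (chr3:88480147-88509956 in GRCm38), which encodes the A-type lamins of the nuclear envelope, stood at 126, 104 and 125 normalized counts in the 3 libraries with CM-4620 and at 309, 299.7 and 329 with CsA. Resting iTregs had 72.7 ± 6.51 (SD, n = 3) and restimulated iTregs 189 ± 10.5, so that the CM-4620 libraries lay below and the CsA libraries above those restimulated without inhibitor. The difference between the inhibitors was -1.39 ± 0.12 (SE) on the log2 scale, or 2.63-fold (adjusted p = 3.70e-06). Among the genes called between the inhibitors, Lmna alone was called lower than restimulated with CM-4620 and higher with CsA. Its log2 differences from restimulated iTregs were -0.67 with CM-4620 (adjusted p = 9.42e-04) and 0.72 with CsA (adjusted p = 5.98e-04).

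Cd24a (chr10:43578284-43584265), a small surface glycoprotein known as heat-stable antigen, had 421, 438 and 487 normalized counts with CM-4620 and 972, 977 and 1010.0 with CsA. Restimulated iTregs had 1082 ± 48.0 and resting iTregs 491 ± 25.0. The CM-4620 libraries were at or below the resting mean and those with CsA just below the restimulated libraries. The log2 difference of -1.14 ± 0.07 (adjusted p = 6.49e-08) was 2.20-fold, and that from restimulated iTregs was -1.27 with CM-4620 (adjusted p = 2.18e-09) and -0.13 with CsA (adjusted p = 0.229). Acadm (chr3:153922357-153944632), the mitochondrial medium-chain acyl-CoA dehydrogenase of fatty acid oxidation, showed another arrangement. It stood at 570.3, 543 and 517 with CM-4620 and 1174, 1143 and 1241 with CsA. Restimulated iTregs, at 568 ± 54.2, and resting iTregs, at 445 ± 18.5, were near the CM-4620 libraries, and all 3 CsA libraries were above every other library of the 4 groups. The log2 difference between the inhibitors was -1.13 ± 0.08 (2.18-fold, adjusted p = 2.79e-07).

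Other structural and metabolic genes were lower with CM-4620. Tubb6, a β-tubulin, had 306, 283 and 355 normalized counts with CM-4620 and 538, 518 and 642 with CsA (-0.85 ± 0.08 on the log2 scale, adjusted p = 1.59e-05). Its level in restimulated iTregs was 549 ± 9.27 and in resting iTregs 364 ± 25.7, so the CsA libraries were spread around the restimulated level and those with CM-4620 were below the resting mean. Capn2, the catalytic subunit of a calcium-dependent protease of the calpain family, stood at 1648, 1612 and 1758 with CM-4620 and 2474, 2522 and 2712 with CsA (log2 difference -0.62 ± 0.06, adjusted p = 1.51e-05). Restimulated iTregs had 1722 ± 117 and resting iTregs 1976 ± 74.4, and each CsA library was above all of these, while 27.1% of the exon bases of Capn2 are shared with other genes. Upp1, the uridine phosphorylase of pyrimidine salvage, was above the restimulated level of 531 ± 23.6 with both inhibitors and higher with CsA, at 1196, 1138 and 1266, than with CM-4620, at 782, 829 and 730.1 (log2 difference -0.62 ± 0.08, adjusted p = 2.32e-04). Resting iTregs had 145 ± 8.92. The calls of Tubb6, Capn2 and Upp1 were kept without each of the 6 libraries.

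Atp7b, a copper-exporting ATPase, had the largest called difference, at low levels. It stood at 5.10, 10.6 and 6.14 normalized counts with CM-4620 and 17.4, 30.8 and 23.2 with CsA, which did not overlap, against 32.2 ± 2.15 in restimulated and 26.9 ± 4.46 in resting iTregs. The log2 difference was -1.60 ± 0.29 (adjusted p = 0.00632), a call lost without CsA replicates 2 or 3 (adjusted p up to 0.0729). This call was also lost under DESeq2. Pygl, the liver form of glycogen phosphorylase, had 40.8, 31.7 and 27.2 with CM-4620 and 63.4, 48.2 and 61.6 with CsA, against 74.4 ± 9.28 in restimulated and 98.7 ± 7.04 in resting iTregs. Its log2 difference was -0.79 ± 0.17 (adjusted p = 0.0211, and 0.0548 without the block), and the call was lost without CM-4620 replicate 3 or CsA replicates 1, 2 or 3 (adjusted p up to 0.162).

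Genes of less clear role in T cells were also among the 15 largest falls. Basp1, a membrane-associated protein first known from neurons, had 82.6, 79.2 and 68.4 normalized counts with CM-4620 and 133, 154 and 113 with CsA, and 116 ± 24.1 in restimulated and 60.2 ± 8.14 in resting iTregs. Its log2 difference of -0.78 ± 0.14 (adjusted p = 0.0062) was a call lost without CsA replicate 2 (adjusted p up to 0.085). Lzts1 was even within each group, at 26.5, 25.5 and 25.4 with CM-4620, 51.1, 50.3 and 45.6 with CsA, 38.2 ± 0.0891 in restimulated and 38.0 ± 3.27 in resting iTregs. The log2 difference was -0.90 ± 0.19 (adjusted p = 0.0185), and the call was lost without any one of the 6 libraries (adjusted p up to 0.121). Fam114a1 ranged more widely, at 41.8, 20.2 and 30.7 with CM-4620 and 68.5, 54.4 and 63.2 with CsA, with 44.4 ± 6.08 in restimulated and 41.0 ± 6.15 in resting iTregs. Its log2 difference was -1.03 ± 0.23 (adjusted p = 0.0305, and 0.0577 without the block), a call lost without CM-4620 replicates 2 or 3 or CsA replicates 1, 2 or 3 (adjusted p up to 0.196).

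Smim3, a small membrane protein, had 184, 181 and 179.9 normalized counts with CM-4620 and 278, 305 and 336 with CsA. Its restimulated level was 278 ± 28.1 and its resting level 145 ± 25.8. The log2 difference of -0.75 ± 0.12 (adjusted p = 0.00186) was kept as a call without each library.

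Among cytokines and secreted proteins, Il10 and Gzma were called lower with CM-4620 and no member of the fixed list of cytokine, chemokine and cytolytic genes was called higher. Il10 (chr1:131019845-131024974), the anti-inflammatory cytokine interleukin 10, stood at 61.2, 65.1 and 52.6 normalized counts with CM-4620 and 113, 138 and 103 with CsA. It rose on restimulation from 32.6 ± 3.81 to 158 ± 25.1. The libraries with CsA lay just below the restimulated ones, and those with CM-4620 were between CsA and resting cells. The log2 difference between the inhibitors was -0.97 ± 0.16 (adjusted p = 0.00323), a call lost without CsA replicate 2 (adjusted p up to 0.056). Against restimulated iTregs Il10 was called lower with CM-4620 (-1.38, adjusted p = 2.00e-05), and with CsA the difference was -0.41 (adjusted p = 0.107).

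Gzma (chr13:113093825-113100981), granzyme A of the cytolytic granule, was even within groups. It had 1007, 990.2 and 987 normalized counts with CM-4620, 1459, 1438 and 1401 with CsA and 2057, 2035 and 1995 in the restimulated libraries, and resting iTregs had 788 ± 23.4. The 4 groups did not overlap, and CsA lay between CM-4620 and restimulated cells. The difference between the inhibitors was -0.53 ± 0.05 on the log2 scale (adjusted p = 2.31e-05), kept without each library. Both inhibitors were called lower than restimulated iTregs, with log2 differences of -1.03 for CM-4620 (adjusted p = 2.18e-09) and -0.50 for CsA (adjusted p = 1.00e-05). Granzyme A is also a gene of NK cells, whose 3 markers were at 0 in all 6 libraries, and of CD8 T cells. The summed level of 2 CD8 T cell markers, mostly Cd8b1, was between 104 and 126 with CM-4620 and between 104 and 118 with CsA. What such cells add to the Gzma level was not tested.

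The 250 bases before the start of Gzma are shown because Gzma is the gene of the cytolytic and cytokine list that both inhibitors lowered to different levels, and these bases hold the core motif that NFAT binds, GGAAA or TTTCC on the other strand (capitals). The sequence was read from RefSeq in GRCm38.p6, at chr13:113100982-113101231 on the minus strand, and is written 5′ to 3′ towards the start.
Gzma: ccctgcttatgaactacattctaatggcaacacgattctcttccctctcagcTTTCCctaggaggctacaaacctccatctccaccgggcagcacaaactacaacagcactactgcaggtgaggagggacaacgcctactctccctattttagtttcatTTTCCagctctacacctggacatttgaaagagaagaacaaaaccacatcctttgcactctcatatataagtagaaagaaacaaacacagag
The matches begin 198 and 91 bases before the start. The same core was found on either strand in 54.381% of the 11333 RefSeq promoter windows of this length that belong to tested genes, so a match is common. Windows were examined for 27 of the 39 genes lower with CM-4620, 39 windows in all, and 17 of these windows held the core. For 7 of the 12 higher genes 10 windows were examined, and 6 of these held it. The other called genes, Tubb6, Smim3 and Cd74 among them, had no window in these counts. Whether RefSeq holds windows for them is not shown here, so the counts do not compare all called genes with the share over tested genes.

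Penk, the precursor of the enkephalin opioid peptides, had 555, 526 and 569 normalized counts with CM-4620 and 824, 842 and 909 with CsA (log2 difference -0.64 ± 0.08, adjusted p = 2.32e-04). Restimulated iTregs stood at 785 ± 77.0, near the CsA libraries, and resting iTregs at 386 ± 25.3. The call was kept without each library, and 14.3% of the exon bases of Penk are shared with other genes. Fgl2, a fibrinogen-like protein that Tregs secrete, was above restimulated cells with both inhibitors. It had 95.9, 88.0 and 53.5 with CM-4620 and 169, 200.1 and 99.2 with CsA, against 33.5 ± 15.4 in restimulated and 28.6 ± 7.90 in resting iTregs, and library 3 was the lowest of each group. The groups did not overlap, but CsA library 3 was just above CM-4620 library 1. The log2 difference of -0.95 ± 0.19 was called with the block (adjusted p = 0.0126) and not without it (adjusted p = 0.308), and the call was lost without CM-4620 replicates 2 or 3 or CsA replicates 1, 2 or 3 (adjusted p up to 0.111).

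Receptors on the cell surface differed in both directions. Havcr2, which encodes the inhibitory receptor TIM-3, stood at 16.3, 16.7 and 9.65 normalized counts with CM-4620 and 39.9, 47.2 and 36.8 with CsA. Restimulated and resting iTregs had only 10.7 ± 0.587 and 10.0 ± 2.30, and all 3 CsA libraries were above every other library. The log2 difference between the inhibitors was -1.50 ± 0.29 (adjusted p = 0.0126), a call lost without CM-4620 replicate 3 or CsA replicates 1, 2 or 3 (adjusted p up to 0.114). This call, too, was lost under DESeq2. Against restimulated iTregs Havcr2 was called higher with CsA (1.84, adjusted p = 5.53e-04), and with CM-4620 the difference was 0.34 (adjusted p = 0.534).

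Klrc1, the inhibitory lectin receptor NKG2A, was also highest in the CsA libraries, each above every other library. Klrc1 had 66.3, 71.3 and 57.9 normalized counts with CM-4620 and 127, 139 and 121 with CsA, against 60.0 ± 9.01 in restimulated and 26.4 ± 7.61 in resting iTregs. Its log2 difference was -0.97 ± 0.19 (adjusted p = 0.0139), and the call was lost without CM-4620 replicates 1 or 3 or CsA replicates 1, 2 or 3 (adjusted p up to 0.147). Reads of Klrc1 can be split with near-identical genes of its family, so its level is uncertain. Ccr2, a chemokine receptor gene and the member of the homing list with the largest difference, was in the same order at low levels, 36.7, 32.6 and 31.6 with CM-4620 and 81.8, 60.6 and 74.4 with CsA, and did not pass the test (log2 difference -1.07, 95% interval -1.65 to -0.49, adjusted p = 0.0681).

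Lilr4b, a receptor of leukocytes, was between the inhibitors in restimulated cells. It had 349.9, 399.6 and 349 normalized counts with CM-4620, 607, 507 and 564 with CsA, 448 ± 27.0 in restimulated and 133 ± 15.3 in resting iTregs. The log2 difference of -0.61 ± 0.10 (adjusted p = 0.00218) was kept without each library, and here too reads may be split with near-identical genes of its family.

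Transcription factors lower with CM-4620 included Atf4, Id2, Bhlhe40 and Zbtb32. Atf4 (chr15:80255184-80257541), the factor of the integrated stress response, was even within both inhibitor groups, at 951, 959 and 955 normalized counts with CM-4620 and 1454, 1468 and 1453 with CsA. Restimulated iTregs, at 1135 ± 42.5, lay between the inhibitors, and resting iTregs were highest at 1724 ± 96.4. Between the inhibitors it differed by -0.61 ± 0.06 (adjusted p = 1.51e-05). Id2 (chr12:25093799-25097140), an inhibitor of E-protein transcription factors, stood at 2088, 2003 and 2252 with CM-4620 and 3001, 3205 and 3249 with CsA (log2 difference -0.58 ± 0.07, adjusted p = 2.76e-04). Restimulated iTregs had 1910.1 ± 88.5 and resting iTregs 1829.8 ± 195, and the CsA libraries were above all others. The calls of Atf4 and Id2 were kept without each of the 6 libraries.

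Bhlhe40, a repressor induced by T cell activation, had 1688, 1742 and 1973 normalized counts with CM-4620 and 2507, 2435 and 2912 with CsA, against 3098 ± 227 in restimulated and 1418 ± 50.3 in resting iTregs. Between the inhibitors it differed by -0.54 ± 0.06 (adjusted p = 1.02e-04), lost without CsA replicate 3 (log2 difference down to -0.497, under the fold threshold). Zbtb32, a zinc finger repressor of activated lymphocytes, had 123, 157 and 106 with CM-4620 and 264, 198 and 213 with CsA. Its level was 203 ± 36.8 in restimulated and 79.5 ± 5.09 in resting iTregs, so the CsA libraries overlapped the restimulated ones. Its log2 difference of -0.81 ± 0.14 (adjusted p = 0.00565) was a call lost without CM-4620 replicates 1 or 3 or CsA replicates 1 or 3 (adjusted p up to 0.0659). Gadd45g, a stress-induced activator of p38 and JNK signalling, stood at 1274, 1229.6 and 1177 with CM-4620 and 1875, 1914 and 2173 with CsA. Its restimulated level was 1356 ± 48.6, nearer to the CM-4620 libraries, and its resting level 651 ± 53.4. The difference of -0.69 ± 0.07 (adjusted p = 3.49e-05) was kept without each library.

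**Figure D2:**
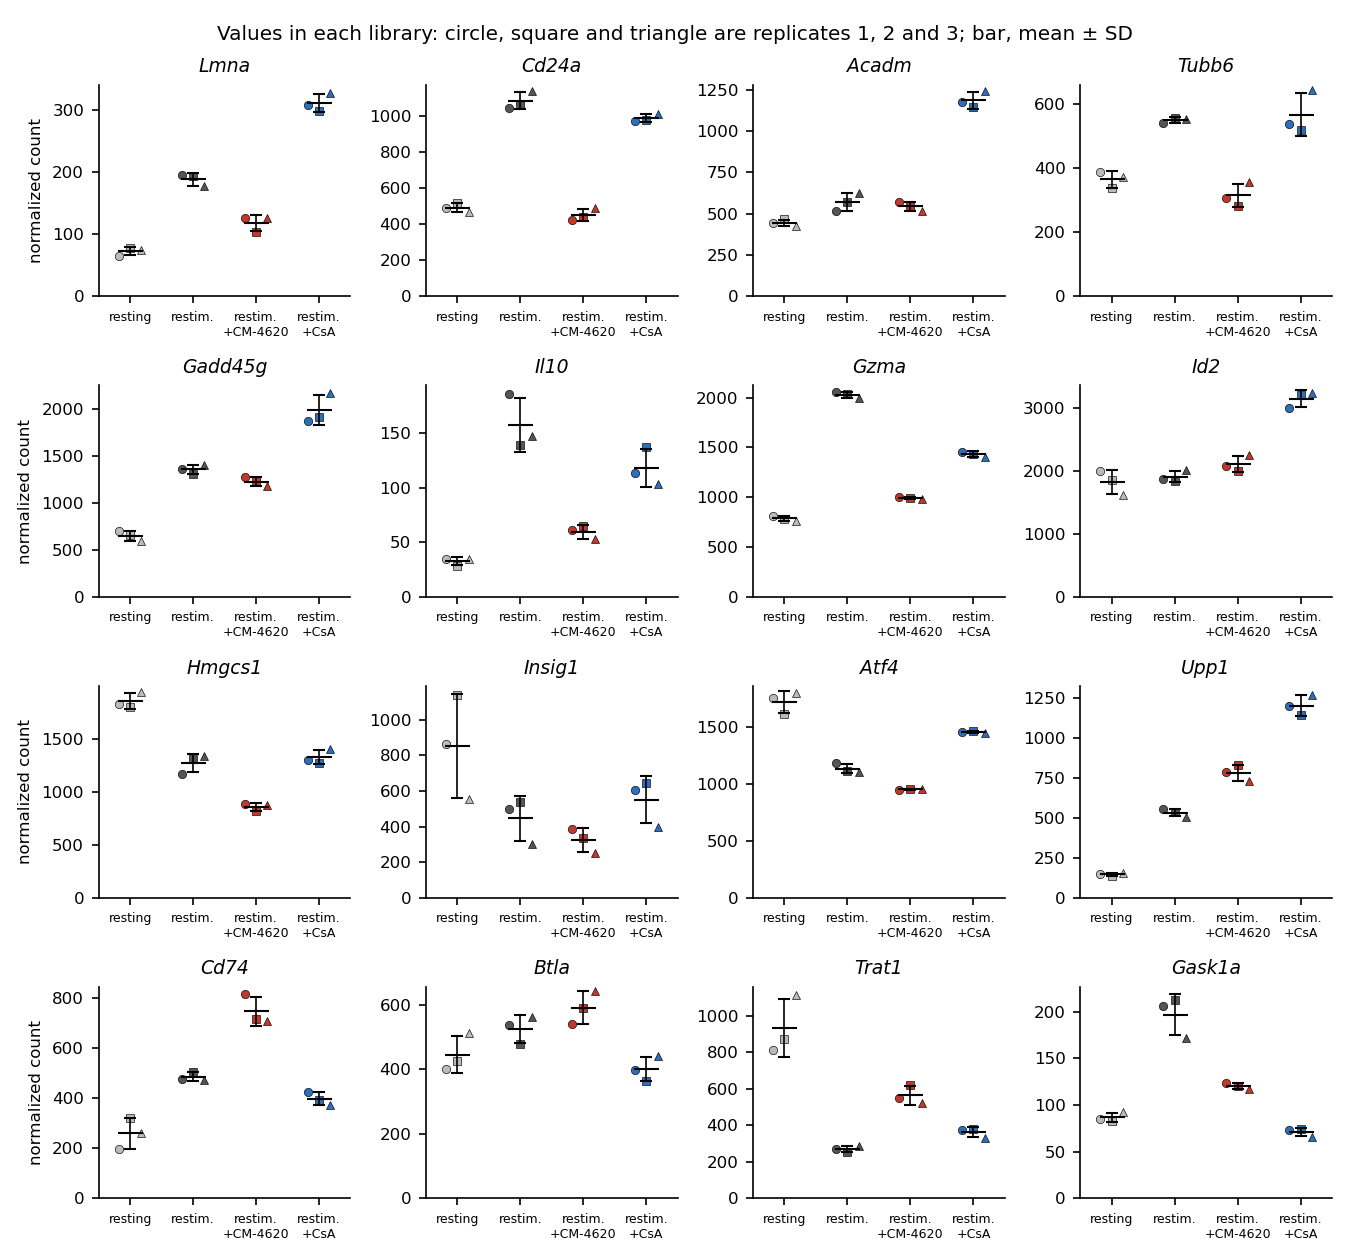
Each panel gives the normalized counts of a gene in the 12 iTreg libraries, with circles, squares and triangles for replicates 1, 2 and 3 and the bar for the mean ± SD of a group. Cd24a and Tubb6 with CM-4620 were near the resting level, Acadm and Id2 with CsA were above all other groups, and Cd74 and Trat1 were highest among restimulated cells with CM-4620.

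In the lists of sterol synthesis and of glycolysis and hypoxia 4 genes were called, all lower with CM-4620. Insig1, which holds the SREBP complex in the endoplasmic reticulum and is itself an SREBP target, had 384, 337 and 250.1 normalized counts with CM-4620 and 603, 648 and 399.8 with CsA. Restimulated libraries had 501, 537 and 302 and resting ones 854 ± 293, and library 3 was the lowest in each group. Between the inhibitors it differed by -0.76 ± 0.10 with the block (adjusted p = 2.58e-04), kept without each library. Without the block it was not called (adjusted p = 0.276). Hmgcs1, the cytosolic HMG-CoA synthase of the mevalonate pathway, was even, with 887, 816 and 876 with CM-4620, 1303, 1271 and 1402 with CsA, 1272 ± 87.5 in restimulated and 1856 ± 74.6 in resting iTregs. Its difference of -0.62 ± 0.06 (adjusted p = 1.59e-05) was kept without each library, and 12.1% of its exon bases are shared with other genes. Hmgcs1 was called lower than restimulated with CM-4620 (-0.56, adjusted p = 8.75e-06), and with CsA the difference was 0.06 (adjusted p = 0.574).

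The 250 bases before the start of Hmgcs1 are shown because they hold the sterol response element letters TCACNCCAC (capitals), the motif that SREBP binds. No other window examined for the called genes held these letters, and not every called gene had a window examined. They were read from RefSeq in GRCm38.p6, at chr13:119690101-119690350 on the plus strand.
Hmgcs1: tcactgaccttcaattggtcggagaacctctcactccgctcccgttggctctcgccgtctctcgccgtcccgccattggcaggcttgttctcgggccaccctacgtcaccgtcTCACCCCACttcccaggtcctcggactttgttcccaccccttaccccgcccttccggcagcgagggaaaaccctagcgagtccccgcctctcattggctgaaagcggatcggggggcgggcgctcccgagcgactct
The match begins 137 bases before the start. These letters occurred on either strand in 0.979% of the 11333 windows of tested genes. The hypoxia response core ACGTG was more common, in 22.104% of the windows. It was found in 11 of the 39 windows examined for lower genes and in 2 of the 10 examined for higher ones.

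Of the 34 members tested of the cholesterol and fatty acid synthesis list, Insig1 and Hmgcs1 were called and both were lower with CM-4620, against 0.351% of all genes tested. The median of the list was -0.13 on the log2 scale, against 0.0066 over all genes tested. Below 0 were 26 of the 34 members, against 5379 of all 11105 genes tested. Sqle, the squalene epoxidase, passed the adjusted p without reaching the fold threshold and was named after its values were seen (-0.41 ± 0.06, adjusted p = 0.00218).

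In the list of glycolysis and hypoxia-linked genes, P4ha2 and Ndrg1 were called lower with CM-4620 and none higher, of 34 tested, against 0.351% of all genes tested that were called lower. The median of the list was -0.15, with 29 members below 0 and 5 above. Of all 11105 genes tested, 5379 were below 0 and 5726 above. No list was tested as a set. P4ha2, a collagen prolyl hydroxylase, had 218, 205 and 219 normalized counts with CM-4620 and 336, 267 and 336 with CsA, both below the restimulated level of 413 ± 11.2. A log2 difference of -0.54 ± 0.09 (adjusted p = 0.00565) was a call lost without CM-4620 replicate 3 or CsA replicates 1 or 3 (adjusted p up to 0.0637). Ndrg1, a stress gene induced by hypoxia, had 659, 724 and 713 with CM-4620 and 1049, 934 and 994 with CsA, below 1194 ± 3.04 in restimulated iTregs. Its log2 difference was -0.50 ± 0.07 (adjusted p = 4.01e-04), lost without CM-4620 replicates 1 or 3 or CsA replicate 1 (log2 difference down to -0.437, under the fold threshold). The mitophagy receptor Bnip3, named after its values were seen, passed the adjusted p alone (-0.47 ± 0.07, adjusted p = 8.54e-04). Ddit4, the mTORC1 inhibitor REDD1, is listed with the ATF4 targets and had 202, 217 and 137 with CM-4620 and 306, 315 and 199 with CsA, with library 3 lowest in both and so one CsA library within the CM-4620 range. Its difference of -0.56 ± 0.10 was called with the block (adjusted p = 0.00923) and not without it (adjusted p = 0.462), and the call was lost without CM-4620 replicate 2 or CsA replicates 1 or 3 (adjusted p up to 0.0821).

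The 12 genes higher with CM-4620 were led by Marcksl1 and Cd74. Cd74, the invariant chain of MHC class II, had 814, 717 and 709 normalized counts with CM-4620 and 425, 394 and 374 with CsA. Restimulated iTregs stood at 486 ± 17.0 and resting iTregs at 259.7 ± 60.8, and the 3 CM-4620 libraries were above every other library. Between the inhibitors it differed by 0.91 ± 0.12 (1.87-fold, adjusted p = 3.64e-04), kept without each library. Against restimulated iTregs Cd74 was called higher with CM-4620 (0.62, adjusted p = 0.00231). Cd74 is also a gene of antigen-presenting cells, and the summed level of 5 B cell markers was between 24.5 and 33.3 with CM-4620 and between 16.0 and 23.5 with CsA. That of 5 dendritic cell markers was between 16.3 and 27.3 with CM-4620 and between 12.8 and 24.5 with CsA. Of these markers Ms4a1, Pax5 and Siglech were at 0 in all 6 libraries, and Cd79b and Zbtb46 were the highest of their lists in each. The sum of 6 macrophage and monocyte markers was between 0.880 and 4.39 with CM-4620 and between 0 and 3.07 with CsA. What such cells add to the Cd74 difference was not tested.

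Marcksl1, a regulator of actin and membrane, stood at low levels of 27.5, 46.6 and 36.0 normalized counts with CM-4620 and 13.3, 13.3 and 16.8 with CsA. The restimulated level of 36.4 ± 2.45 was within the CM-4620 range, and resting iTregs had 19.9 ± 2.35. A log2 difference of 1.26 ± 0.25 (adjusted p = 0.0126) was the largest called rise, and the call was lost without CM-4620 replicates 2 or 3 or CsA replicates 1 or 2 (adjusted p up to 0.132). Gask1a, a Golgi-associated kinase-like protein, was below its restimulated level of 197 ± 22.2 with both inhibitors, at 123, 121 and 117 with CM-4620 and 73.6, 73.9 and 65.6 with CsA, and resting iTregs had 86.9 ± 5.09. The difference was 0.75 ± 0.12 (adjusted p = 0.00264), kept without each library. Among the genes called between the inhibitors, Gask1a was the single one that both lowered against restimulated iTregs and CsA lowered further. Its log2 differences from restimulated iTregs were -1.45 for CsA (adjusted p = 9.02e-07) and -0.70 for CM-4620 (adjusted p = 0.00102).

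Trat1, a transmembrane adaptor that associates with the T cell receptor, fell on restimulation from 934 ± 160.1 to 269.8 ± 16.6 normalized counts. With CM-4620 it had 551, 619 and 521 and with CsA 376, 379.7 and 332, so both inhibitors lay between restimulated and resting cells with CM-4620 nearer to resting. A log2 difference of 0.63 ± 0.11 (adjusted p = 0.00336) was a call lost without CsA replicate 3 (adjusted p up to 0.0504). The window before its start is shown as the case of a gene lower after restimulation and higher with CM-4620, and it holds the NFAT core once (capitals, chr16:48772063-48772312 in GRCm38.p6, minus strand).
Trat1: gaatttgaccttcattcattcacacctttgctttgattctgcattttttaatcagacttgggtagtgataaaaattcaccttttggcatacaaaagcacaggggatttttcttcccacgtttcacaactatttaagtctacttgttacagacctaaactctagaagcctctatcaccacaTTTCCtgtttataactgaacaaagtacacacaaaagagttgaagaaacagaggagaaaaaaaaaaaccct
The match begins 70 bases before the start, and the share of all windows with this core is the one given above.

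Btla, an inhibitory receptor that binds HVEM, was higher with CM-4620. It had 539.7, 591 and 641 normalized counts with CM-4620 and 399, 364 and 439.8 with CsA, against 525 ± 43.1 in restimulated and 445 ± 58.3 in resting iTregs. Between the inhibitors it differed by 0.56 ± 0.08 (adjusted p = 5.31e-04), kept without each library. Btla and Havcr2 were the members called of the 14 co-inhibitory receptors and ligands tested, in opposite directions. Of all genes tested 0.108% were called higher and 0.351% lower. Ncoa7, a nuclear receptor coactivator, had 356, 334 and 374 with CM-4620 and 232, 244 and 238 with CsA, on either side of its restimulated level of 275 ± 4.47. Resting iTregs had 279 ± 31.9, and the difference of 0.57 ± 0.09 (adjusted p = 0.00228) was kept without each library.

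P2rx7, the ATP-gated cation channel and the member called of the calcium entry and handling list, had 259, 317 and 275 normalized counts with CM-4620 and 228, 175 and 198 with CsA. Restimulated iTregs, at 289 ± 18.1, and resting iTregs, at 302 ± 14.8, were in the CM-4620 range. Its log2 difference of 0.50 ± 0.11 (adjusted p = 0.024) was the smallest of the called rises, and it was lost without CM-4620 replicates 2 or 3 or CsA replicates 2 or 3 (adjusted p up to 0.19) and also under edgeR, DESeq2, both other scalings and a pseudocount of 5, where its difference was between 0.490 and 0.498. Serpina3g, a serine protease inhibitor whose reads can be split with close family members, had 532, 588 and 537 with CM-4620, 384, 423 and 318 with CsA, 379 ± 40.8 in restimulated and 500.0 ± 72.3 in resting iTregs. The difference was 0.56 ± 0.12 (adjusted p = 0.0173), a call lost without CM-4620 replicates 1, 2 or 3 or CsA replicates 1 or 3 (adjusted p up to 0.182). Actr3b, a form of the actin-related protein ARP3, had 151, 149.6 and 125 with CM-4620, 85.9, 105 and 87.2 with CsA, 75.1 ± 11.5 in restimulated and 171 ± 2.39 in resting iTregs. Its difference of 0.61 ± 0.13 (adjusted p = 0.0292) was a call lost without CM-4620 replicates 1, 2 or 3 or CsA replicates 1 or 3 (adjusted p up to 0.162). Ptges3l had 75.5, 74.8 and 60.5 with CM-4620, 48.0, 38.0 and 40.8 with CsA, 58.3 ± 3.38 in restimulated and 66.4 ± 3.82 in resting iTregs. Its difference was 0.72 ± 0.16 (adjusted p = 0.0338), the call was lost without any one of the 6 libraries (adjusted p up to 0.192), and 40.5% of its exon bases are shared with other genes.

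Of the 13 mitochondrially encoded genes 1 was called, higher with CM-4620, against 0.108% of all genes tested. All 13 were above 0 in the difference between the inhibitors, against 5726 of all 11105 genes tested. Their median was 0.33 on the log2 scale, against 0.0066 over all genes tested. The difference of mt-Nd4l was the largest at 1.64, with a 95% interval of -1.57 to 4.85, and rests on 1 library: it had 40.8, 37.0 and 37.7 with CM-4620 and 41.9, 46.2 and 0 with CsA. Without CsA replicate 3 it was -0.71, and without all libraries numbered 3 it was -0.18. mt-Co3, a subunit of cytochrome c oxidase, had 12001, 11713 and 16205 normalized counts with CM-4620 and 7472, 8562 and 9582 with CsA, against 6239.7 ± 977 in restimulated and 10855 ± 2893 in resting iTregs. The difference of 0.63 ± 0.14 was called with the block (adjusted p = 0.0316) and not without it (adjusted p = 0.122), and the call was lost without CM-4620 replicates 2 or 3 or CsA replicates 1, 2 or 3 (adjusted p up to 0.199). These genes took between 2.11% and 2.24% of the reads with CM-4620, between 1.56% and 1.92% with CsA, between 1.81% and 1.91% in restimulated and between 1.77% and 2.63% in resting iTregs, so the range with CM-4620 was within that of resting cells. Mitochondrial transcripts can share reads with nuclear copies.

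The remaining 9 genes called lower with CM-4620 had log2 differences between -0.67 and -0.50. Arrb1, β-arrestin 1 of receptor desensitization, had 516, 485 and 506 normalized counts with CM-4620 and 754, 688 and 724 with CsA (-0.52 ± 0.06, adjusted p = 2.32e-04), lost without CsA replicate 1 (log2 difference down to -0.498, under the fold threshold). Mcf2l, a guanine nucleotide exchange factor, had means of 113 ± 9.71 and 181 ± 25.9 (SD, n = 3) with CM-4620 and CsA (-0.67, adjusted p = 0.0126), a call lost without CM-4620 replicates 2 or 3 or CsA replicates 1 or 3 (adjusted p up to 0.139). Padi2, a calcium-dependent peptidylarginine deiminase, had 344 ± 29.2 and 501 ± 13.9 (-0.55, adjusted p = 0.00504), a call lost without CsA replicate 1 (adjusted p up to 0.0636). In these 3 genes the libraries of the inhibitors did not overlap. Cpm, the membrane carboxypeptidase M, had 181 ± 11.3 and 263 ± 39.2 (-0.53, adjusted p = 0.0195), lost without CM-4620 replicates 2 or 3 or CsA replicates 2 or 3 (adjusted p up to 0.182).

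The other 5 of them were called with the block and not without it. Prss12, a serine protease, had 66.2 ± 4.99 normalized counts with CM-4620 and 105 ± 3.39 with CsA (-0.66, adjusted p = 0.0374, and 0.0577 without the block), lost without any one of the 6 libraries (adjusted p up to 0.198). Vps37b, a subunit of the ESCRT-I sorting complex, had 443 ± 67.6 and 634 ± 50.0 (-0.52, adjusted p = 0.0305, and 0.168 without the block), lost without CM-4620 replicates 2 or 3 or CsA replicates 1, 2 or 3 (adjusted p up to 0.203), and 42.5% of its exon bases are shared. Rara, the retinoic acid receptor α, had 355 ± 38.2 and 509 ± 41.3 (-0.52, adjusted p = 0.0379, and 0.108 without the block), lost without CM-4620 replicates 2 or 3 or CsA replicates 1, 2 or 3 (adjusted p up to 0.237). The libraries of the inhibitors did not overlap in these 3 genes. Fcmr, the Fc receptor of IgM, had 165 ± 11.5 and 235 ± 23.6 (-0.51, adjusted p = 0.0172, and 0.0577 without the block), lost without CM-4620 replicates 1 or 2 or CsA replicates 1, 2 or 3 (adjusted p up to 0.141). Cemip2, a hyaluronidase of the cell surface, had 141 ± 37.3 and 196 ± 30.2 (-0.50, adjusted p = 0.0399, and 0.399 without the block), lost without any one of the 6 libraries (adjusted p up to 0.276), and its libraries overlapped between the inhibitors, with library 3 lowest in both.

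Set beside restimulated iTregs without inhibitor, the 39 genes lower with CM-4620 fell into several arrangements. Both inhibitors were compared with the same 3 restimulated libraries, and each also shares its own libraries with the comparison of the inhibitors, so these counts are a description. With CM-4620, 18 of the 39 were called lower than restimulated (2.09% of all genes tested were), 2 higher (1.69%) and 19 were not called. With CsA, 2 were called lower (1.56% of all genes tested), 12 higher (1.79%) and 25 were not called. In 15 genes, among them Cd24a, Il10, Tubb6, Hmgcs1, Penk and Bhlhe40, CM-4620 was called lower than restimulated and CsA was not called. In 9 genes, among them Acadm, Capn2, Id2, Gadd45g and Havcr2, CsA was called higher than restimulated and CM-4620 was not called. Fgl2 and Upp1 were called higher with both, Gzma and Vps37b lower with both, and 10 genes, Atf4 and Insig1 among them, were called with neither.

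Of the 12 genes higher with CM-4620, 6 were called higher than restimulated with CM-4620 and not called with CsA, among them Actr3b, Cd74, Serpina3g, Trat1 and mt-Co3. Marcksl1 and P2rx7 were called lower with CsA and not called with CM-4620. Btla, Ncoa7 and Ptges3l were called with neither inhibitor. By the call between restimulated and resting iTregs, restimulation had raised 17 and lowered 4 of the 39 lower genes, and raised 3 and lowered 3 of the 12 higher genes. Over all genes tested it raised 6.88% and lowered 6.63%.

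**Figure D3:**
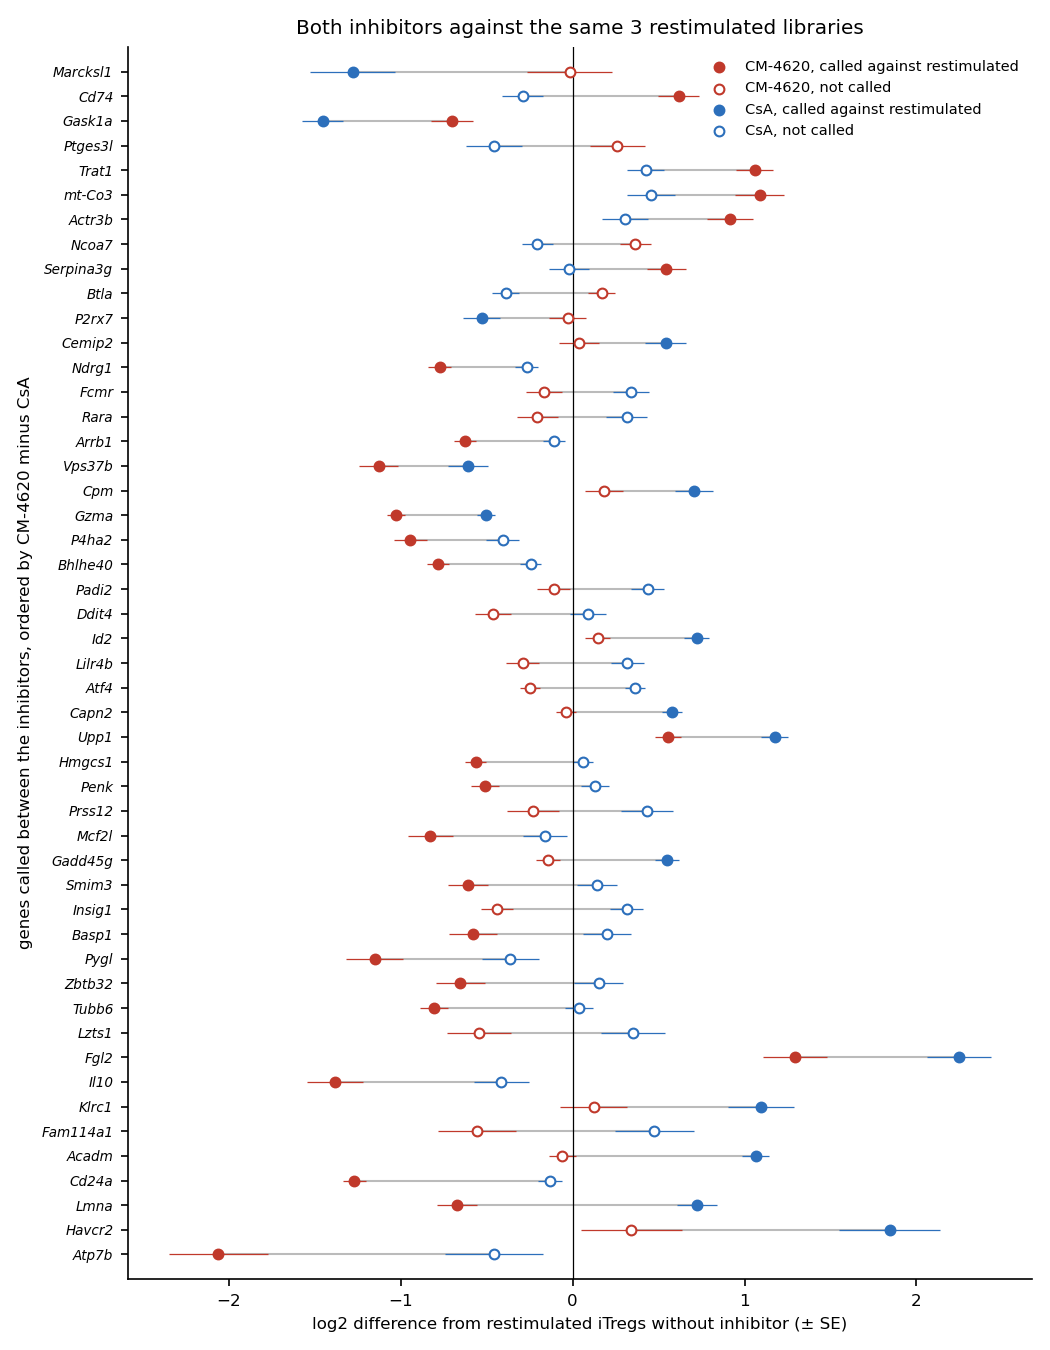
The x axis gives the log2 difference from restimulated iTregs (± SE) with CM-4620 (red) and with CsA (blue) for 49 of the 51 genes called between the inhibitors, ordered from the largest rise with CM-4620 at the top to the largest fall at the bottom; filled points were called against restimulated cells. Both inhibitors are measured against the same 3 restimulated libraries, and Lmna is the gene with filled points on opposite sides of 0.

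Of 20 genes of calcineurin, the NFAT factors and the cyclophilins that were tested, none was called (0.459% of all genes tested were), the median was -0.05, and for 17 the 95% interval lay within ±0.5, as it did for 74.0% of all genes tested. The 2 largest differences were those of Nfatc3 (0.17, 95% interval -0.01 to 0.34, adjusted p = 0.38) and of Homer3, a scaffold that binds NFAT (-0.16, -0.65 to 0.32, adjusted p = 0.8). Among 26 genes of calcium entry and handling P2rx7 alone was called, against 0.459% of all genes tested, and the median was -0.05. The mitochondrial calcium exchanger gene Slc8b1 had the next largest difference (-0.49, 95% interval -1.04 to 0.06, adjusted p = 0.422).

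None of 13 EGR, NR4A, TOX and IRF factors induced by the T cell receptor was called (median -0.06), where 0.459% of all genes tested were. At that share a list this short can hold no call without differing from other genes. Nr4a1 had 46.9, 25.5 and 43.9 normalized counts with CM-4620 and 63.4, 60.6 and 64.0 with CsA, without overlap, and a difference of -0.72 (95% interval -1.13 to -0.31, adjusted p = 0.0837). Irf8 had 845, 880.2 and 644 and 1229, 1274 and 812, with library 3 lowest in both so that the groups overlapped, and passed the adjusted p but not the fold threshold (-0.47, -0.61 to -0.33, adjusted p = 9.17e-04). None of 14 AP-1, BATF and MAF factors was called, against the same 0.459%. The list had the lowest median of the 25, at -0.24, with 11 members below 0, against 5379 of all 11105 genes tested. Junb had 4858, 4342 and 2966 and 6606, 6180.3 and 4073 (-0.47, -0.60 to -0.34, adjusted p = 2.89e-04). Maff was low and scattered, at 30.6, 16.7 and 17.5 and 32.7, 25.7 and 42.4 (-0.64, -1.19 to -0.08, adjusted p = 0.287). The groups overlapped for both genes, and each library with CM-4620 was below the CsA library of the same number. Fosl2 and Jun of this list, named after their values were seen, also passed the adjusted p alone, with differences of -0.40 (adjusted p = 0.0399) and -0.40 (adjusted p = 0.0167).

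Of the 30 cytokine, chemokine and cytolytic genes tested Il10 and Gzma were called (0.459% of all genes tested were), and the median was -0.11, against 0.0066 over all genes tested. Ifng had the largest difference in size, 1.02, but its 95% interval was -0.37 to 2.41 and its level was at or near the floor, at 2.04, 6.16 and 6.14 normalized counts with CM-4620 and 2.04, 5.13 and 0 with CsA. None of 37 helper lineage factors and cytokine receptors was called (median -0.11), against the same 0.459%. The largest differences there were those of Tbx21, which encodes T-bet, and Rora. Tbx21 had 88.8, 61.6 and 28.1 with CM-4620 and 84.8, 105 and 68.0 with CsA, which overlapped (-0.65, -1.05 to -0.24, adjusted p = 0.123), and Rora differed by -0.43 (-0.71 to -0.16, adjusted p = 0.123).

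None of the 24 genes of the Treg signature that were tested was called, where 0.459% of all genes tested were. The median of the signature was 0.03. The largest differences were those of the receptor gene Tigit (-0.40, -0.74 to -0.05, adjusted p = 0.281) and of Nlrp6, and Gpr83, named after its values were seen, passed the adjusted p alone (0.37, adjusted p = 6.00e-04). Foxp3, the factor that defines Tregs, had 847, 842 and 906 normalized counts with CM-4620 and 815, 655 and 830.0 with CsA, against 710.3 ± 18.7 in restimulated and 1280.0 ± 88.4 in resting iTregs. The CM-4620 libraries were all above those with CsA, and the log2 difference was 0.18 (95% interval 0.02 to 0.34, adjusted p = 0.292), while 31.5% of its exon bases overlap other genes. The interval for Foxp3 lay under the fold threshold.

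Foxp3 is one of 16 genes that the study names as rescued by the inhibitors. That list was chosen by the study on these libraries and is not independent evidence of a direction. Of the 16, Gzma was called between the inhibitors and lower with CM-4620, against 0.351% of all genes tested. None was called higher, and for 11 the 95% interval lay within ±0.5. Of the 8 called higher after restimulation, 6 were called lower than restimulated with CM-4620 and 5 with CsA. Tbx21, Gzma, Atf3, Fasl and Il12rb2 were called with both inhibitors and Stat2 with CM-4620. Of all genes tested, 2.09% were called lower with CM-4620 and 1.56% with CsA. Of the 8 called lower after restimulation, Id3 and Ms4a4b were called higher than restimulated with each inhibitor. The shares over all genes tested were 1.69% with CM-4620 and 1.79% with CsA. Foxp3 was called with neither: its log2 differences from restimulated were 0.28 for CM-4620 (adjusted p = 0.0224) and 0.10 for CsA (adjusted p = 0.435). This call concerns RNA in these libraries alone, harvested at a time that is not given. The study also measured Foxp3 by intracellular protein staining and by QPCR, and those data were not examined here. Il21, which encodes a cytokine of T follicular and TH17 cells, had 742, 827 and 828 with CM-4620 and 687, 808 and 771 with CsA (0.08, -0.07 to 0.24, adjusted p = 0.651). Ms4a4b, a surface protein of resting T cells, stood at 1483, 1730.4 and 1537 and 1538, 1582 and 1363 (0.08, -0.14 to 0.31, adjusted p = 0.775). Neither interval reached ±0.5, and the libraries overlapped in both genes.

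Id3, an inhibitor of E proteins, had 312, 268 and 254 normalized counts with CM-4620 and 179.9, 202 and 214 with CsA, against 119 ± 5.41 in restimulated and 626 ± 69.8 in resting iTregs. It passed the adjusted p and not the fold threshold (0.48, 0.26 to 0.70, adjusted p = 0.0251), and its libraries did not overlap. Id3 is thus on the opposite side of Id2, which is the related gene called lower with CM-4620. The differences of the others were -0.15 for Stat2 (95% interval -0.30 to -0.01), -0.16 for Stat3 (-0.27 to -0.05), -0.26 for Atf3 (-0.42 to -0.10) and -0.18 for Il12rb2 (-0.30 to -0.06), of which the first 2 encode signal transducers of cytokine receptors and the last a chain of the IL-12 receptor. They were -0.22 for the death ligand gene Fasl (-0.63 to 0.19), -0.21 for Il10rb (-0.37 to -0.05), 0.05 for Sema4a (-0.11 to 0.20), 0.15 for Tgfbr1 (-0.04 to 0.35) and 0.04 for Tgfbr2 (-0.12 to 0.21), and none of these 9 passed the adjusted p. Tbx21, given above, is also of this list. Nlrp6, at 12.2, 4.40 and 9.65 with CM-4620 and 10.2, 13.3 and 9.60 with CsA, was too low for a bound (-0.39, -1.28 to 0.51, adjusted p = 0.726).

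**Figure D4:**
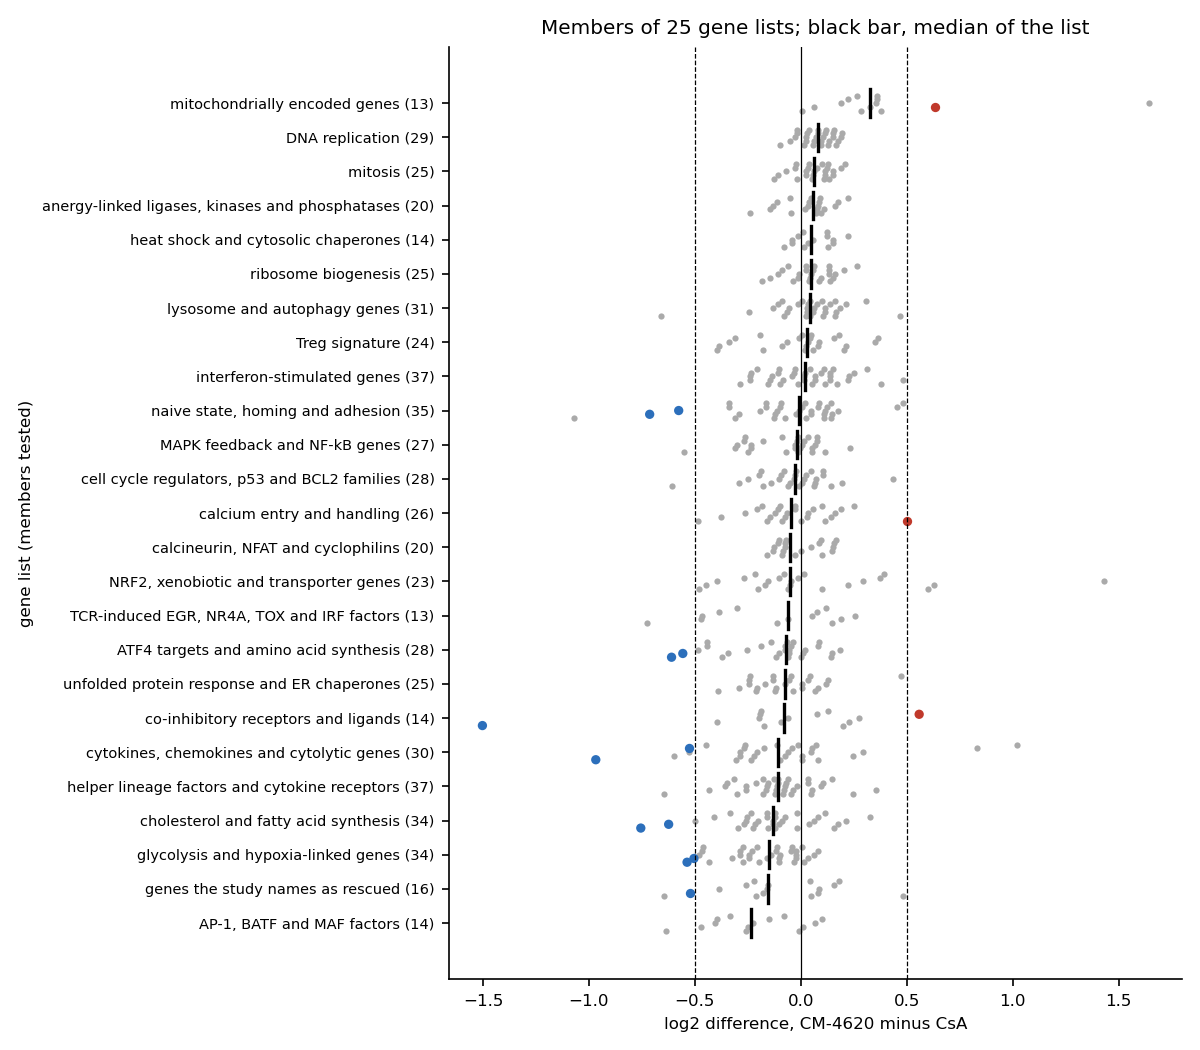
Each point is the log2 difference between CM-4620 and CsA of one tested member of a gene list, called members are blue (lower with CM-4620) or red (higher), black bars are medians and dashed lines mark ±0.5. Medians ran from -0.24 for the AP-1, BATF and MAF factors to 0.33 for the mitochondrially encoded genes, and 16 of the 25 lists held no called member.

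Growth and housekeeping lists and the list linked to anergy held no gene called between the inhibitors, and the differences of their members were small. In the lists of DNA replication (29 genes), mitosis (25), ribosome biogenesis (25) and of ligases, kinases and phosphatases linked to anergy (20), no gene was called and the 95% interval of every member lay within ±0.5. Of all genes tested 0.459% were called, and 74.0% had an interval within ±0.5. The medians of these lists were 0.08, 0.06, 0.05 and 0.06, against 0.0066 over all genes tested. Members above 0 numbered 24, 19, 17 and 14 in that order, against 5726 of all 11105 genes tested. The proliferation marker Mki67, for example, had 2801, 3103 and 2728 normalized counts with CM-4620 and 2550.2, 2533 and 2483 with CsA (0.19, 95% interval 0.04 to 0.33, adjusted p = 0.221). The largest differences of these lists were those of Rrm1 (0.19), Mcm10 (0.19), Cenpf (0.21), Heatr1 (0.26), Wdr12 (0.20), Cblb (-0.24) and Inpp4b (0.22). All 14 heat shock and cytosolic chaperone genes were also within ±0.5, and the largest differences were those of Hsph1 (0.22, 0.10 to 0.34) and Hspa8 (0.15, 0.04 to 0.26).

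In the remaining lists calls were few, where 0.459% of all genes tested were called and 0.351% were called lower. Of the 35 genes of the naive state, homing and adhesion 2 were called, Id2 among them, both lower with CM-4620, with a median of -0.01. Atf4 and Ddit4 were called of the 28 ATF4 targets and amino acid synthesis genes, with a median of -0.07. No gene was called among 37 interferon-stimulated genes (median 0.02), 25 genes of the unfolded protein response and chaperones of the endoplasmic reticulum (-0.08), 31 lysosome and autophagy genes (0.05), 28 cell cycle regulators and genes of the p53 and BCL2 families (-0.03), 27 MAPK feedback and NF-kB genes (-0.02) and 23 NRF2, xenobiotic and transporter genes (-0.05). The members of largest difference in these lists did not pass the adjusted p. Dusp2, a phosphatase of MAP kinases, had 91.8, 88.9 and 79.9 with CM-4620 and 126, 126 and 131 with CsA (-0.55, -0.84 to -0.26, adjusted p = 0.0583). Cyp1a1, a target of the aryl hydrocarbon receptor, had 22.4, 29.0 and 18.4 and 10.2, 4.11 and 11.2 (1.43, 0.52 to 2.34, adjusted p = 0.132). The others were Nfkbiz (-0.31, -0.57 to -0.05), Nqo1 (0.63, -0.09 to 1.35), Wipi1 (-0.66, -1.15 to -0.17), Gla (0.47, 0.20 to 0.74), Bcl2a1d (-0.61, -1.26 to 0.05), Ccnd1 (0.44, -0.58 to 1.45), Ifi203 (0.48, -0.12 to 1.08), Ifih1 (0.38, -0.01 to 0.77), Derl3 (0.47, -0.21 to 1.15) and Dnajb9 (-0.39, -0.64 to -0.14). Metallothionein 2, Mt2, named after its values were seen, passed the adjusted p alone (-0.48, adjusted p = 0.00264).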

How the data were processed

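RNA was measured by RNA-seq (a modified SMART-seq2 protocol on sorted live cells, without unique molecular identifiers and not stranded) in 24 libraries, of which the 12 of iTregs were used: resting, restimulated, restimulated with CM-4620 and restimulated with CsA, 3 each. Groups came from the sample labels. Per the methods of the study and the submitters' processing notes, the authors trimmed reads with Cutadapt 1.18, aligned them with STAR 2.5.3 to mm10, counted with RSEM 1.3.0 and GENCODE annotation, and normalized with DESeq2 1.26. The deposited table gives a signal per gene, the gene count divided by a size factor of its library. Whole reads were recovered from it, with 100% of values whole at a tolerance of 0.01.

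The filter kept 11105 genes that reached 10 normalized counts in 3 or more of the 12 libraries. limma 3.58.1 was fitted to log2(normalized count + 1), a scale that understates fold changes of low genes, with an intensity trend, all 4 groups and the replicate number as a block. A call needed an adjusted p (Benjamini-Hochberg) under 0.05 and an absolute log2 difference above 0.5. The fit was tested on simulated data. Alternatives were a fit without the block, only the groups compared, other size factors and quantile scaling, other pseudocounts, filters and thresholds, each library left out, and edgeR 4.0.16 and DESeq2 1.42.0 on the recovered reads. The blocked fit pairs libraries by their number, which the labels do not tie to a day, culture or animal. Floors and depths cover counting error only.

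Named genes were the called genes, of which 2 are not reported here, the 15 largest rises and falls with all values, the called and the 2 largest members of each list, and the genes the study names as rescued. Members and lists were chosen with earlier results of these data known. Of the list genes 4 had no row by their name. Positions came from GENCODE M21 in GRCm38, which matched 11034 of the 11105 genes (99.361%), and promoter windows from RefSeq. ATAC-seq and CUT&Tag libraries were not analysed here.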

Additional observations from a re-analysis of the deposited data

How the results depend on the processing

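With CM-4620 against CsA, 51 genes were called (12 higher, 39 lower), and single libraries or a replicate number left out gave 23 to 50 (3 to 11 higher, 20 to 39 lower), the lowest without replicate 2. Without CsA replicate 2, 32 were called (24 lower), and without CM-4620 replicate 2, 7 were higher. Fitting the groups compared alone called 81 (21 higher, 60 lower), the adjusted p alone 150 (43 and 107), and a log2 threshold of 1 called 7 (1 and 6). Without the replicate block 40 genes were called (11 higher, 29 lower), and 366 and 324 for CM-4620 and CsA against restimulated iTregs. The same-numbered libraries of CM-4620 and CsA correlated at 0.074, 0.086 and 0.290 in their deviations, so the numbers do not pair every library by a correlation above 0.1. The other scalings, pseudocounts and filters gave 43 to 52 genes, edgeR 59 and DESeq2 45, and 42 genes were called by all 3 tools. Of the 51 genes, 41 kept their call without a filter on low values, 50 under edgeR and 42 under DESeq2.

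Against restimulated iTregs, leaving out libraries gave 259 to 383 genes for CM-4620 (420 in all) and 226 to 320 for CsA (372), again lowest without replicate 2. A filter at 100 normalized counts gave 277 and 230, the adjusted p alone 1169 and 1336, and a log2 threshold of 1 gave 105 and 90. With libraries left out, differences of 4 genes that were not called changed sign. Ccnd1 ran from -0.19 to 1.00 (-0.09 without CM-4620 replicate 2, -0.19 without replicate 2) and Ms4a4b from -0.028 to 0.16 (-0.019 without CM-4620 replicate 2, -0.028 without CsA replicate 3). mt-Nd4l ran from -0.71 without CsA replicate 3 to 2.87 (-0.18 without replicate 3), and Nlrp6 from -0.79 to 0.12 without replicate 2 (0.10 without CM-4620 replicate 2). The cause of these changes was not tested. At 3 libraries a group and this depth, 92.9% of genes were bounded within ±1 on the log2 scale.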

Other observations

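Several genes called between the inhibitors are also given by RNA-seq libraries of conventional T cells and of thymus-derived Tregs (SD, n = 3 in each group, normalized counts). These cells received no inhibitor, and the comparison above did not use them. By the methods of the study they were sorted from older mice than the 6-week-old mice used for iTregs. Lmna stood at 14.5 ± 1.20 in resting and 41.6 ± 10.7 in activated conventional T cells, and at 70.9 ± 10.7 in resting and 126 ± 38.1 in activated thymus-derived Tregs. Cd24a was low in all of these groups, between 3.57 ± 2.34 in resting conventional T cells and 66.6 ± 1.56 in resting thymus-derived Tregs. Acadm was highest in resting conventional T cells, at 1188 ± 50.6, and stood at 663 ± 21.5 once they were activated. Upp1 was at most 5.24 ± 4.37 in any of these groups, at or near the floor, while all 12 iTreg libraries were above it.

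Havcr2, at 3.46 ± 1.38 in resting conventional T cells, was at 47.0 ± 6.00 in activated ones, and at 48.3 ± 9.05 in resting and 80.4 ± 3.70 in activated thymus-derived Tregs. Cd74 was at 8.22 ± 0.919 in resting and 355 ± 21.3 in activated conventional T cells. Trat1 was lower after activation in both kinds of cell, at 1936 ± 115 and 692 ± 59.6 in resting and activated conventional T cells and at 2217 ± 219 and 1135 ± 85.4 in thymus-derived Tregs. These levels were not tested against each other or against those of iTregs.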
